A study of Mus musculus with 4 samples.

Results

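Fatty acid oxidation and uncoupling were examined through 10 genes: Cpt1a, Cpt2, Acadl, Acadm, Acadvl, Hadha, Hadhb, Ucp2, Ucp3 and Pdk4, of 20923 protein-coding mouse genes with a curated RefSeq transcript. The genes were taken by name, as a set chosen with earlier results of these data known. A peak was counted for a gene when its summit, the base with the most stacked fragments, lay in the gene body or within 50 kb of the transcription start site (TSS). The data are binding sites of SMAD4 in alveolar macrophages (AMs), the resident phagocytes of the lung airspaces. The cells came from wild-type C57BL/6J mice, 9 weeks old and untreated as far as the labels say. They were obtained by bronchoalveolar lavage and sorted by flow cytometry in equal aliquots. Binding was measured by HT-ChIPmentation, in which chromatin is immunoprecipitated and sequencing adapters are inserted by a transposase while it is still on the beads. There were 4 libraries: 2 immunoprecipitated with SMAD4 antibodies and 2 of input chromatin. There was no second condition, so that the comparisons made were between the replicates, among the 10 genes, and with all other genes and SMAD4 sites. A peak records where the protein was held on DNA and is no measure of a gene's transcription.

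Mitochondria burn long-chain fatty acids only after these have crossed the inner membrane as carnitine esters. Cpt1a, on the outer membrane, makes the ester and sets the pace of entry, and Cpt2, on the inner membrane, turns it back into acyl-CoA. The acyl-CoA dehydrogenases Acadvl, Acadl and Acadm, named for the very long, long and medium chains they prefer, take the first step of each round of β-oxidation. Hadha and Hadhb encode the α and β subunits of the trifunctional protein, which carries out the remaining steps on long chains. Ucp2 and Ucp3 are inner-membrane carriers of the uncoupling protein family, and Pdk4 is a kinase that shuts off pyruvate dehydrogenase and so favours fat over glucose as fuel. AMs help to maintain the level of lung surfactant, which is mostly lipid. SMAD4 is the partner with which receptor-activated SMAD proteins carry TGFβ signals into the nucleus.

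Overlapping peaks of both libraries (1 bp or more) were joined into a shared region, of which there were 10964 in all. Of the 10 genes, 7 had at least 1 shared region: Cpt1a, Acadl, Hadha, Hadhb, Ucp2, Ucp3 and Pdk4. By the same rule 39.1% of all protein-coding genes had one. Hadha and Hadhb were counted on the same regions, and Ucp2 and Ucp3 largely so, so that the 7 genes are not 7 separate loci. Cpt2 and Acadm had no peak in either library, and Acadvl had a peak in replicate 2 alone. Replicate 1 placed a peak in the window of 7 genes (46.6% of all protein-coding genes) and replicate 2 in that of 8 (53.4%). For 4 genes, Hadha, Ucp2, Ucp3 and Pdk4, a shared region had the gene's own TSS as the nearest, compared with 21.5% of all protein-coding genes. No test was made of these counts, since 10 chosen genes in 1 condition allow none.

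The 7 genes had 13 distinct shared regions, fewer than the sum over genes because Hadha and Hadhb, and Ucp2 and Ucp3, are neighbours with overlapping windows. Of the 13, 7 had one of the 10 genes as the nearest by TSS and 6 had another gene nearer. By position, 8 were intronic, 3 intergenic, 1 in the promoter of a microRNA gene and 1 in an untranslated exon. None was in the promoter of one of the 10 genes (1 kb upstream to 100 bp downstream of a TSS). Among all shared regions 49.3% were intronic, 40.5% intergenic and 6.42% in promoters. In the gene body, 4 genes had one (Cpt1a, Hadha, Hadhb and Ucp3), and 15.8% of all protein-coding genes had one in the body or promoter. The shared region closest to the TSS of one of the 10 genes was 8.64 kb away.

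**Figure D1:**
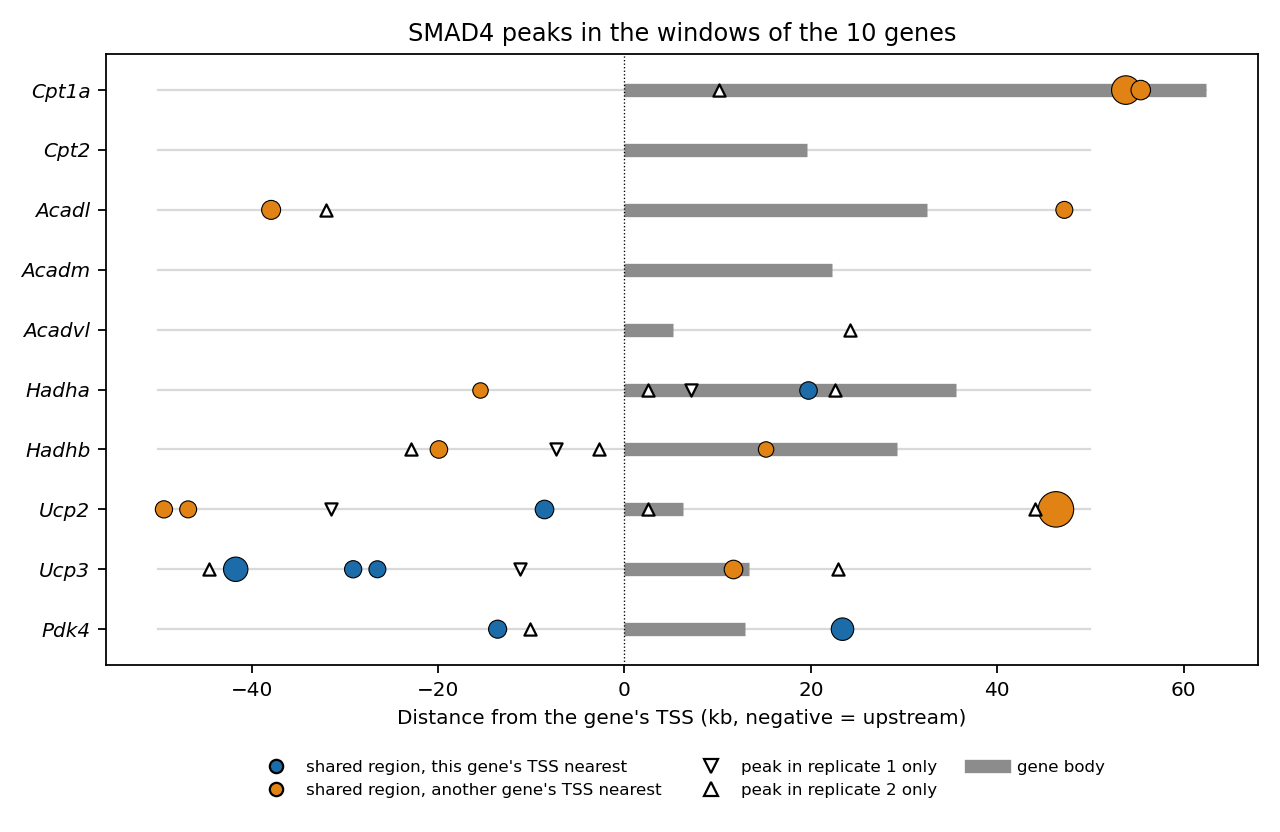
SMAD4 peaks around each of the 10 genes, by distance from the gene's TSS in kb (negative values are upstream) with gene bodies in grey. Circles are shared regions, with area rising with the smaller fold enrichment of the replicates, coloured by whether the gene's own TSS was the nearest, and open triangles are peaks of 1 library. The 2 circles of Cpt1a lie near the far end of its gene body, and the Cpt2 and Acadm lines are empty.

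The sequences under some of the summits are given next, as 201 bases centred on the mean summit, plus strand, from the RefSeq copy of GRCm38 (mm10). Capitals mark matches to short strings associated with transcription factors, listed with their frequencies further on. All windows with a C/EBP string are among those shown. The windows of the strongest region, downstream of Ucp2, and of the region with no string, in Hadha, are not. The first pair shows the Cpt1a sites, the strongest with an AP-1 string and its neighbour with a C/EBP string. The Acadl and Pdk4 windows have a C/EBP string within a few bases of the summit, and the Ucp3 windows show PU.1 and C/EBP strings in a neighbouring gene.
Cpt1a intron 14, chr19:3376982-3377182: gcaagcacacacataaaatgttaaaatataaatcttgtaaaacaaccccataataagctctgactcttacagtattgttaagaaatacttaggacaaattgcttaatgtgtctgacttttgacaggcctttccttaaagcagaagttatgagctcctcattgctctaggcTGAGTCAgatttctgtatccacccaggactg
Cpt1a intron 15, chr19:3378593-3378793: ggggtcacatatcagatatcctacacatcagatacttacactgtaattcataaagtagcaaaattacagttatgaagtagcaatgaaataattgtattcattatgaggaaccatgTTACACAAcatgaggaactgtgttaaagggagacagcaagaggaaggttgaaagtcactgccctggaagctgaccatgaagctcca
Acadl upstream, chr1:66901087-66901287: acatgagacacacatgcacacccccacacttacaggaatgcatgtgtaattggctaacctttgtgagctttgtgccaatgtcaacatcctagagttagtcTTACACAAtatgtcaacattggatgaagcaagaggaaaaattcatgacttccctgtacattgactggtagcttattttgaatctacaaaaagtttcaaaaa
Ucp3 upstream, C2cd3 intron 22, chr7:100431228-100431428: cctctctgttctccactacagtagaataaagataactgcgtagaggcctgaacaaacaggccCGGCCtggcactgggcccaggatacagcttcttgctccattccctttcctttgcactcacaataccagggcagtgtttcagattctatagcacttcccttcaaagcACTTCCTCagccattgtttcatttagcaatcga
Ucp3 upstream, C2cd3 intron 28, chr7:100446413-100446613: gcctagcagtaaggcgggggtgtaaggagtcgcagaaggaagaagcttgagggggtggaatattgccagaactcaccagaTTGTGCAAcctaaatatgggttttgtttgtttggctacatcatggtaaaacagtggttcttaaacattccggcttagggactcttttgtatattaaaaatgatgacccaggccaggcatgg
Pdk4 downstream, chr6:5472793-5472993: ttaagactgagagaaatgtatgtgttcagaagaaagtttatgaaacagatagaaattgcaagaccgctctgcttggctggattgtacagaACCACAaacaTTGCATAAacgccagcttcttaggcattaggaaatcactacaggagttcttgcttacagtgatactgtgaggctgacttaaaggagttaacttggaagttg

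Cpt1a, the entry step, held the strongest site inside any of the 10 gene bodies. The region (chr19:3376690-3377437) lay in intron 14, 53.8 kb downstream of the Cpt1a TSS, in a gene body of 62.4 kb. Its fold enrichment, the summit pileup over the control level with 1 added to both, was 23.4 in replicate 1 and 34.7 in replicate 2. The summit held 71 fragments in replicate 1 (exact Poisson 95% interval 55.5 to 89.6) and 82 in replicate 2 (65.2 to 102.0). Both libraries therefore placed it well above the median pileup of their peaks, 17 and 14 fragments. It ranked 238 of the 10964 shared regions by the smaller fold of the replicates, and 1.43% of protein-coding genes had as strong a region in their window. Such intervals cover counting error only.

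A second Cpt1a region (chr19:3378514-3379009) lay in intron 15, with folds of 8.65 and 14.7 in replicates 1 and 2 and 28 and 34 fragments at the summit. Of its bases 53.2% were masked as repeats, which made it the only one of the 13 over 50% (4.13% of all shared regions were). For both Cpt1a regions the nearest TSS was that of Tesmin, 11775 and 10164 bp away, and not that of Cpt1a. Both lay over 50 kb from the Cpt1a TSS and were counted because they are inside the gene. Which gene either site serves was not tested. A weaker peak in intron 1, 10.1 kb downstream of the TSS, was called in replicate 2 alone (fold 5.41, 11 fragments). Cpt2, the inner-membrane enzyme of the shuttle, had no peak, with the closest shared region 65.5 kb upstream and nearest to Slc1a7.

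Of the dehydrogenases, Acadl had 2 shared regions, neither in its gene body, and Acadm and Acadvl had none. One (chr1:66900894-66901471) lay in intergenic sequence 37.9 kb upstream, with folds of 7.98 and 10.5 and 32 and 29 fragments in replicates 1 and 2, and had Myl1 as the nearest gene at 34179 bp. Here the control level was above the genome-wide background, at 3.14 fragments in replicate 1 and 1.85 in replicate 2, compared with background levels of 2.08 and 1.22. The other (chr1:66815993-66816277) lay 47.2 kb downstream in intron 1 of Kansl1l, 1470 bp from that gene's TSS, with folds of 5.52 and 8.12. Replicate 2 alone had a peak 32.0 kb upstream (fold 9.48, 20 fragments), the highest fold among peaks of 1 library.

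Acadm had no peak in its window in either library. The Acadvl window, which also contains the TSSs of 8 other genes, held 1 peak of replicate 2 (fold 5.41, 11 fragments, exact Poisson 95% interval 5.49 to 19.7). That peak was in the promoter of Gabarap, 24.2 kb from the Acadvl TSS, and had no partner in replicate 1. A peak of 11 fragments lies between the weakest in that list, 7 fragments, and its median of 14. The weakest peak of replicate 1 had 9. Absence of a peak is a statement at this depth.

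Hadha and Hadhb, which encode the subunits of 1 enzyme complex, are transcribed in opposite directions from start sites 273 bp apart, so that both windows held the same peaks. In intron 7 of Hadha (chr5:30135052-30135435, 19.7 kb from its TSS) the folds were 6.17 in replicate 1 and 8.57 in replicate 2, with 18 fragments in each. This region was nearest to Hadha and held none of the 13 strings searched. Inside Hadhb, 15.2 kb from its TSS, a region (chr5:30170370-30170629) had folds of 3.87 and 6.7 and 15 fragments in each library. It lay 282 bp from the TSS of the microRNA gene Mir1960, at percentile 2.99 of all shared regions by fold. Its control level was 3.14 fragments in replicate 1 and 1.39 in replicate 2, above the background levels of 2.08 and 1.22.

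Peaks of a single library were also found in Hadha. Replicate 1 alone had a peak in intron 2 of Hadha (fold 3.57, 10 fragments), and replicate 2 alone had peaks in introns 1 and 9 (folds 4.96 and 7.22). None of these was at the shared start sites. Of the 7 genes, these had the lowest fold at their strongest site, and 27.4% of protein-coding genes had as strong a shared region.

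Ucp2 and Ucp3 lie in tandem, with their start sites 20.4 kb apart, and together had 5 shared regions, 4 in the window of each. The strongest (chr7:100539319-100540131) was 46.3 kb downstream of the Ucp2 TSS in untranslated sequence of exon 2 of Coa4, a cytochrome oxidase assembly gene whose own TSS was 2599 bp away. Its folds were 38.3 in replicate 1 and 57.3 in replicate 2, with 117 fragments (96.8 to 140.0) and 126 (105.0 to 150.0). This placed it at rank 16 of 10964, and 0.153% of protein-coding genes had as strong a region. It counts for Ucp2 by distance and is nearest to Coa4.

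The strongest region with an uncoupling gene as the nearest (chr7:100430937-100431630) lay 41.7 kb upstream of Ucp3, in intron 22 of C2cd3. The folds were 15.9 and 24.8 and the pileups 48 (35.4 to 63.6) and 54 (40.6 to 70.5). It ranked 814, and 5.2% of protein-coding genes had as strong a region. Other C2cd3 introns held 2 weaker regions in the windows of both genes. That in intron 27 (chr7:100443806-100444171) had folds of 5.85 and 8.57 and summits 2 bp apart. That in intron 28 (chr7:100446305-100446727) had folds of 5.52 and 7.67 and summits 137 bp apart, the widest gap of the 13.

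The site closest to either uncoupling gene (chr7:100484497-100484920) was in intron 6 of Ucp3, 11.7 kb downstream of the Ucp3 TSS and 8.64 kb upstream of the Ucp2 TSS, and so nearest to Ucp2. It had folds of 7.47 and 11.7 and 22 and 25 fragments. Within Ucp2 itself, replicate 2 alone had a peak in intron 2 (fold 8.12, 17 fragments). Further peaks of 1 library lay in neighbouring genes: in C2cd3 intron 32 in replicate 1 (fold 5.32, 21 fragments), and in C2cd3 intron 20 (8.12, 17 fragments) and Coa4 intron 1 (4.51, 9 fragments) in replicate 2. Having 4 shared regions or more was a property of 5.85% of protein-coding genes.

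Pdk4 was the only one of the 7 with no TSS of another gene in its window. It had 2 shared regions, both intergenic and both nearest to Pdk4. The stronger (chr6:5472543-5473088), 23.4 kb downstream of the TSS and beyond the gene's end, had a fold of 15.9 in replicate 1 (48 fragments, 35.4 to 63.6) and 12.9 in replicate 2 (29 fragments, 19.4 to 41.6). It was the only one of the 13 with the higher fold in replicate 1, and a ratio between replicates as low was at percentile 3.53 of all shared regions. The counting intervals of its folds, 11.8 to 21.0 and 8.78 to 18.3, overlapped. The other (chr6:5509684-5510171) lay 13.6 kb upstream with folds of 6.82 and 8.57. Replicate 2 alone had a peak 10.1 kb upstream (fold 4.96, 10 fragments). As strong a region as the first was found for 8.32% of protein-coding genes.

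**Figure D2:**
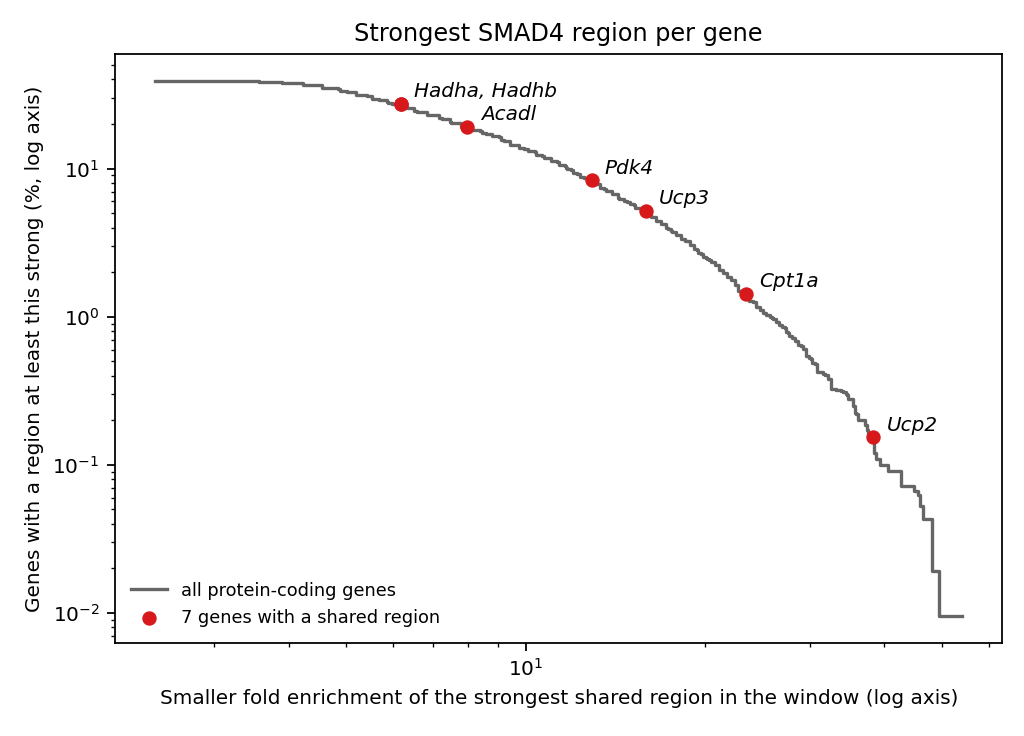
For the 7 genes with a shared region (red points), the smaller fold of the strongest region in the window (log axis) against the percentage of all protein-coding genes with a region at least that strong (log axis, grey line). Ucp2 at 38.3 and Cpt1a at 23.4 lie furthest right, and Hadha and Hadhb at 6.17 furthest left; the regions of Ucp2 and Cpt1a were nearest to other genes.

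Across the 13 regions, the smaller fold had a median of 7.47, compared with 6.5 over all shared regions, and 8 of the 13 were above that median. The regions above the 90th percentile numbered 3: those of Coa4 (Ucp2), Cpt1a intron 14 and Ucp3 upstream. The median width was 488 bp, compared with 440 bp. In the 201 bp windows around the summits, the median GC content was 45.3%, compared with 43.8%. The median distance to the nearest TSS of any gene was 13632 bp, compared with 18040.5 bp. These values describe the regions, and no test was made.

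The replicates ranked the 13 regions similarly, with a Spearman rho of 0.978 between the folds. This is a description over 13 regions of the same pair of libraries. Replicate 2 had the higher fold in 12 of the 13, as it had in 87.2% of all shared regions, with a median ratio of 1.47 for the 13 and 1.39 for all. The background level in replicate 1 was 2.08 fragments and in replicate 2 it was 1.22, which applied at 79.5% and 81.0% of summits, and fold enrichment is taken over each peak's own control level. Counting intervals of the folds overlapped for 12 of the 13, the exception being the Coa4 region. The intervals of its pileups, 96.8 to 140.0 and 105.0 to 150.0, did overlap. Its ratio of folds, 1.49, was at percentile 59.5 of all shared regions. Replicate 1 had 15 distinct peaks in the windows and replicate 2 had 22, of which 2 and 9 had no partner. These unpartnered peaks had 9 to 21 fragments and folds of 3.57 to 9.48, beside median pileups of 17 and 14 fragments and median folds of 5.52 and 6.77 over all peaks of replicates 1 and 2.

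**Figure D3:**
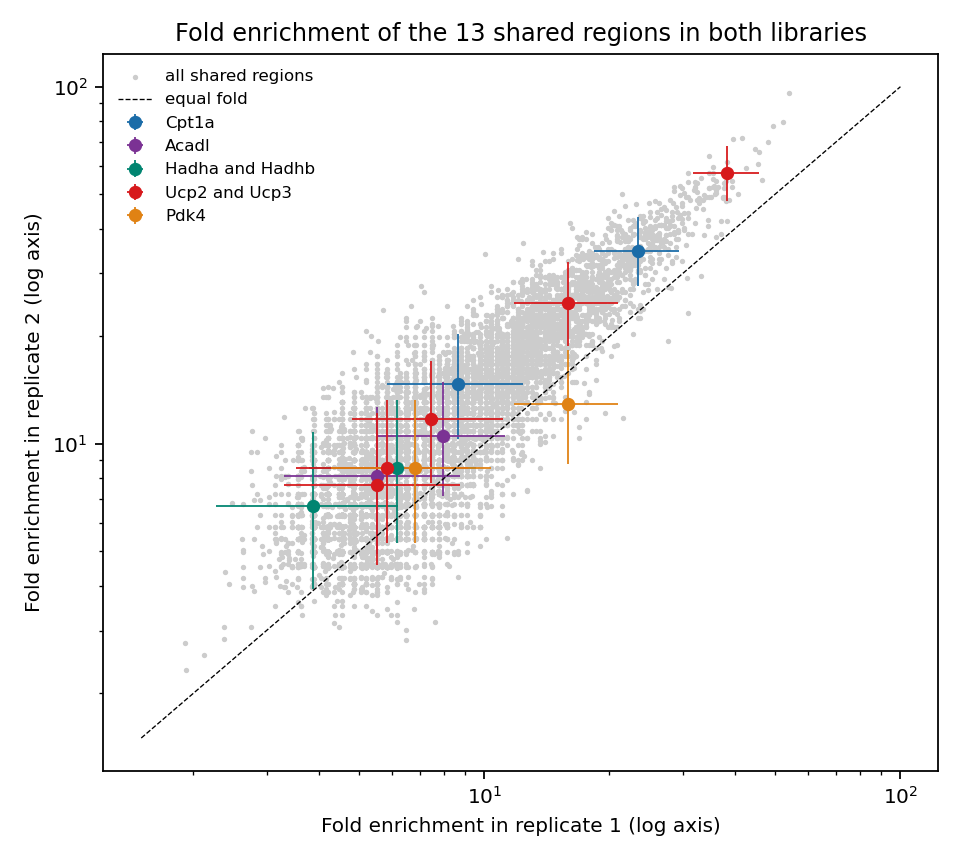
Fold enrichment in replicate 1 against replicate 2 (both log axes) for the 13 shared regions, coloured by gene, with all 10964 shared regions in grey. Bars are exact Poisson 95% intervals of the summit pileup, scaled to folds, and the dashed line marks equal folds. Of the 13 points, 12 lie above the line and the stronger Pdk4 region lies below it.

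Short sequence strings were searched on both strands in the 201 bp summit windows. The C/EBP string (TT, purine, pyrimidine, purine, pyrimidine, AA) was present in 4 of the 13 windows (30.8%) and in 23.6% of all 10964: Cpt1a intron 15, Acadl upstream, C2cd3 intron 28 and Pdk4 downstream. In these windows it lay 3 to 18 bp from the mean summit, compared with a median of 34 bp in all 2590 windows that held it, of which 31.8% had it within 20 bp. C/EBP factors are leucine-zipper proteins active in macrophages. The PU.1 string GAGGAAGT was in 3 windows (23.1%, compared with 8.0%): C2cd3 introns 22 and 27 and the region inside Hadhb. It lay 53 to 81 bp from the mean summit there, farther than the median of 41 bp in all windows that held it. PU.1 is a lineage-determining ETS factor of macrophages, and its string contains the shorter ETS string AGGAAGT, present in 4 windows (30.8%, compared with 20.4%). With 13 windows, 1 window is 7.69%, and no test was made of these shares.

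Of the strings of SMAD proteins, GTCTGG was in 1 window, C2cd3 intron 27 (11.2% of all). The GC-rich strings GGCGC or GGCCG were in 2, C2cd3 intron 22 and Ucp3 intron 6 (10.8% of all). The palindrome GTCTAGAC was in none (0.465% of all). RUNX (TGTGGT) was in 3 windows (23.1%, compared with 26.4% of all). AP-1 (TGANTCA) was in 1, the strongest Cpt1a region (12.3% of all). STAT (TTCNNNGAA) was in 1, upstream of Pdk4 (8.06% of all), and the E-box CACGTG in 1, in Kansl1l (3.65% of all). The nuclear receptor string AGGTCA was in 1, the Coa4 region (15.4% of all). The PPAR-RXR element DR1, 2 such sites separated by 1 base with 1 mismatch allowed, and RBPJ (GTGGGAA) were in none (4.01% and 4.14% of all). The AP-1 string lay 73 bp from the mean summit, compared with a median of 43 bp in all windows that held it. In the stronger Pdk4 window the C/EBP and RUNX strings lay 3 and 8 bp from the summit. Over its 3 windows the RUNX string lay 8 to 74 bp away, compared with a median of 41 bp in all. Only the Hadha intron 7 window held no string (19.8% of all windows held none).

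Other genes of the pathway were counted by the same rule from a list of 66. Of these, 32 (48.5%) had a shared region, compared with 39.1% of all protein-coding genes. Some listed genes on the same chromosome had equal folds at their strongest region, so a region may be counted for more than 1 gene. By role, the count was 6 of 10 for the carnitine shuttle and fatty acid activation, 8 of 18 for mitochondrial β-oxidation and 9 of 13 for peroxisomal oxidation. It was 4 of 9 for the pyruvate dehydrogenase switch, 4 of 11 for regulators and 1 of 5 for uncoupling proteins and mitochondrial carriers. A shared region in the gene body or promoter was found for 18 genes (27.3%), beside 15.8% of all protein-coding genes.

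**Figure D4:**
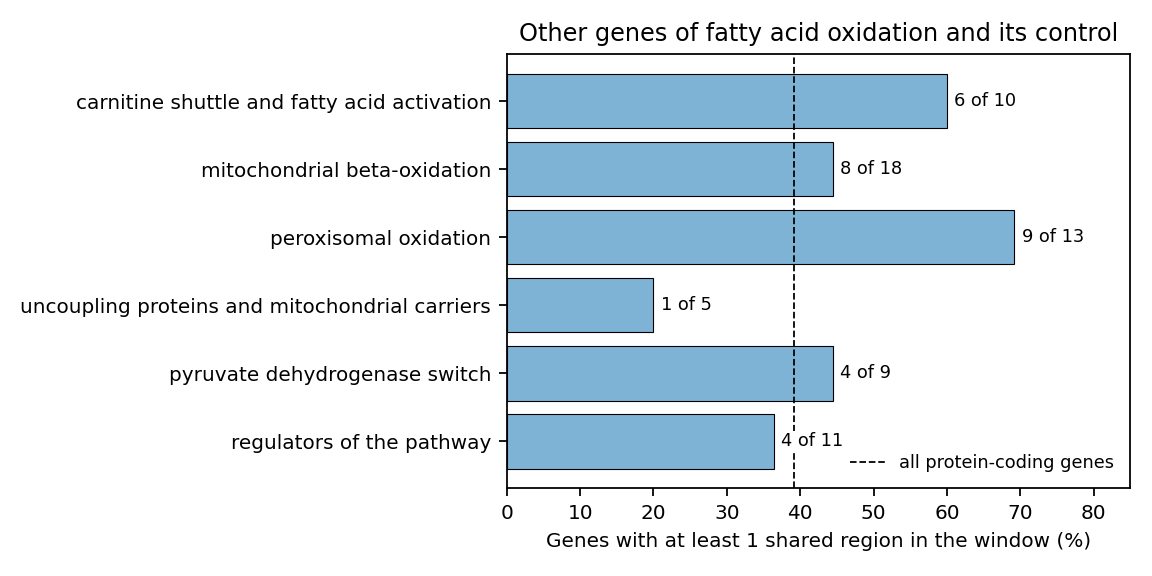
Percentage of genes in each pathway group with at least 1 shared region in the window, with counts beside the bars. The dashed line marks the 39.1% of all protein-coding genes; peroxisomal oxidation (9 of 13) lies furthest above it and uncoupling proteins and carriers (1 of 5) furthest below.

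The genes with the strongest sites in their own body or promoter came from several roles. Abcd2, a peroxisomal importer of very long-chain acyl-CoA, had 7 shared regions, with folds of 27.9 and 48.3 at its strongest intronic site. Acsl1, which activates long-chain fatty acids, had folds of 17.9 and 33.5 in an intron, at a site with the TSS of Cenpu nearest. Echs1, a mitochondrial enoyl-CoA hydratase, had folds of 13.3 and 28.0 in an intron. Unlike the 10 genes above, some had the site in a promoter of their own: the thiolase Acaa1a (10.1 and 12.2), the isomerase Ech1 (6.5 and 8.12) and the dehydrogenase Acadsb (6.17 and 10.4). Intronic sites of Acsl4, Acox3 and Hsd17b4 had folds of 7.8 and 7.67, 7.15 and 19.9, and 6.5 and 11.3. The Acox3 site had the TSS of another gene, 4931431C16Rik, nearest. Of the Pdk4 relatives, Pdk1 and Pdk2 had no peak, and Pdk3 had 1 peak in each library that did not overlap. Ucp1, which uncouples respiration in brown fat, had 1 shared region (7.15 and 12.2), outside its body and promoter.

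The window was set by distance alone. Just inside it, the region in C2cd3 intron 27 lay 49.4 kb upstream of Ucp2 with folds of 5.85 and 8.57. Just outside, a region 59.4 kb upstream of Acadvl had folds of 6.5 and 13.5 and was nearest to Asgr2. Other regions outside were stronger. The region in C2cd3 intron 22, inside the Ucp3 window, lay 62.0 kb upstream of Ucp2 (folds 15.9 and 24.8), and the Coa4 region, inside the Ucp2 window, lay 66.7 kb downstream of Ucp3 (38.3 and 57.3). A region 64.5 kb upstream of Pdk4 and nearest to Pdk4 had folds of 14.4 and 17.5 with 70 and 57 fragments. Pdk4 would thus have 3 regions by nearest TSS at any distance.

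The lists held 16369 peaks in replicate 1 and 19015 in replicate 2, with median widths of 233 and 256 bp. Marker loci of AMs and of other cells were counted by the same rule, although a peak is no measure of expression. All 12 AM markers and all 5 macrophage markers measured had a shared region. Of 20 markers of T cells, B cells, alveolar epithelium, endothelium, airway and neutrophils, 6 had one, 1 in each list, beside the 39.1% of all protein-coding genes.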

How the data were processed

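HT-ChIPmentation libraries of sorted AMs were analysed from the peak lists of 2 SMAD4 immunoprecipitations. Of the 2 input libraries no values were used, and they enter through the control level of each peak. Replicate numbers follow accession order and pair no library with an input. The labels do not say whether the libraries came from separate animals, so the spread between them may be technical.

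Per the study's methods, the authors aligned Cutadapt-trimmed reads to mm10 with Bowtie2, removed duplicates, and called peaks in each sample with MACS3 against input at a q-value limit of 0.05. For each peak the deposited values are a score, a fold ratio of pileup to control, and p and q as −log10 values. The score the authors deposited was not used. Lists were not pooled. Read totals did not enter. The summit pileup served as depth, solved from the fold and −log10 p of each peak within 0.001 on the −log10 scale, and checked on simulated data. The depth of 7 to 17 fragments at weak and median summits limits the precision.

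Genes were those with curated RefSeq transcripts of GRCm38 (45657 transcripts, 26089 genes), chromosomes 1 to 19 and X. Summits were assigned to genes, features and nearest TSS as described with the results, and pileup intervals are exact Poisson 95% intervals. Peaks of 1 library were placed by their own summits, shared regions by the mean summit. The text names all 10 genes with all their shared regions. Of the other pathway genes it names up to 10, those with the highest smaller fold in a gene body or promoter, of which 1 is not reported here. Pdk1, Pdk2, Pdk3, Ucp1 and the single-library peaks described were named after their values were seen. The members and lists were chosen with earlier results of these data known, and the strings were taken over in part from such results. Alternatives to the window, nearest-gene rule, transcripts, q-value, fold, overlap and libraries were tried. Analyses used Python 3.11.15, numpy 2.4.6, pandas 2.3.3, scipy 1.17.1 and pysam 0.24.0.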

Additional observations from a re-analysis of the deposited data

How the results depend on the processing

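Of the counts over the 10 genes and the pathway list, 57 alternative values stayed within 1.5 times the reported one and 13 did not. The share of all protein-coding genes with a shared region also moved with the window, from 39.1% to 20.6% at 10 kb, 28.1% at 25 kb and 54.9% at 100 kb. Of the 10 genes, 5, 6 and 9 had one at these windows, compared with 7 at 50 kb. With a TSS window of 10 kb, the distinct shared regions numbered 5, the pathway genes with one 21, the median regions per gene 0.5 and the genes with a replicate 2 peak 5. With 25 kb there were 7 regions and a median of 1, and with 100 kb there were 21 regions. Counting only regions with the gene's own TSS nearest, at any distance, gave 4 genes (21.5% of all protein-coding genes), 8 regions, 20 pathway genes, a median of 0 and 4 genes with a replicate 1 peak. Without replicate 1, 8 genes and 43 pathway genes had a site, beside 53.4% of all protein-coding genes, with 22 regions and a median of 3. Without replicate 2, 7 genes and 36 pathway genes had a site, beside 46.6%, with 15 regions and a median of 2. By gene, 22 counts moved. Cpt1a went from 2 regions to 0 without the gene body, Acadl from 2 to 0 at 10 and 25 kb, Pdk4 from 2 to 0 at 10 kb, and Ucp2 and Ucp3 from 4 to 1 at 10 and 25 kb. Hadha and Hadhb went from 2 to 1 at 10 kb and at a minimum fold of 5, and to 4 without replicate 1. At 100 kb, Cpt2 had 1 region and Acadvl 4. By nearest TSS, Cpt1a, Acadl and Hadhb had 0. These windows and lists hold fewer or more peaks by construction. No paired analysis was possible because the replicate numbers were given in accession order, the inputs have no values here and no result comes from a test between groups. The depth limits what is called absent: the weakest peaks had 9 fragments in replicate 1 and 7 in replicate 2.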
